A study of Arabidopsis thaliana with 4 samples.

Results

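GID1A (AT3G05120) and GID1B (AT3G63010) encode receptors for the growth hormone gibberellin, and their transcripts are described here in Arabidopsis thaliana seedlings under 4 combinations of light quality and temperature. The members were chosen as the probe sets that the array's annotation assigns to these loci, which gave 1 probe set for each gene among 22810 on the array, and 2 of the 13286 genes that could be named. Plants of the low R:FR groups, at 16 and at 22 °C, spent their last 24 h at an R:FR, the ratio of red to far-red photons, of 0.1, while those of the high R:FR groups stayed at a ratio of 4.4. All groups shared the accession La-er, white light at 100 micromoles of photons per square metre and second, growth on soil, and an age of 5 days at harvest. All also carried a mutation of the far-red photoreceptor gene PHYA. The labels call it phyA, without an allele number, in the low R:FR group at 16 °C, and phyA-2 in the other groups. RNA came from cotyledons with a small part of hypocotyl, and each condition had 1 array. No condition was repeated, so a comparison of single arrays has no replicate check, no error from replicates and no p-value.

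Gibberellin binds GID1 proteins in the nucleus, and the bound receptor takes hold of DELLA proteins, which repress growth. The F-box protein SLY1 then marks the DELLA proteins for destruction, and elongation growth can proceed. In Arabidopsis another receptor gene, GID1C (AT5G27320), acts beside GID1A and GID1B with overlapping roles. Light poor in red, as under neighbouring leaves, inactivates phytochrome B and sets off the elongation of stems and petioles known as shade avoidance, in which gibberellin takes part. Transcription of receptor genes is known to be lowered by gibberellin and raised by DELLA proteins.

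GID1A transcript was slightly lower in low than in high R:FR at 16 °C and more than 2-fold higher at 22 °C. Its signal, the linear intensity that summarises a probe set, was 66.4 in low R:FR at 16 °C, against 83.4 in high R:FR at 16 °C. At 22 °C it was 118 in low R:FR, against 53.4 in high R:FR. The highest and the lowest of the 4 levels thus both lay at 22 °C, with the 16 °C levels between them. The log2 ratio of low over high R:FR, called the light response below, was -0.33 at 16 °C (1.26-fold lower) and 1.15 at 22 °C (2.21-fold higher).

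GID1B had light responses of the same signs as GID1A, at lower signals. At 16 °C its signal was 25.5 in low R:FR, against 36.8 in high R:FR (log2 -0.53, 1.44-fold lower). The 22 °C signals were 54.4 in low R:FR, against 36.8 in high R:FR (log2 0.56, 1.48-fold higher). The high R:FR signals of both temperatures were equal to the printed digit, and the low R:FR signals lay below them at 16 °C and above them at 22 °C.

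GID1C did not follow its relatives at 22 °C. At 16 °C its signal was 22.2 in low R:FR, against 35.2 in high R:FR, a light response of -0.67. The 22 °C signals were 16.5 in low R:FR, against 35.2 in high R:FR, a response of -1.09. GID1C was therefore lower in low R:FR at both temperatures. All of these signals lay above the floor of 14.5, the 30th percentile of all signals, below which values were not ordered. The lowest GID1C signal nevertheless lay under 17.9, the highest value of 27 control probe sets for bacterial transcripts absent from the samples, so the size of its 22 °C response is uncertain. With that signal raised to 17.9, the response was -0.98, short of 2-fold. All GID1A and GID1B signals lay above that value.

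**Figure D1:**
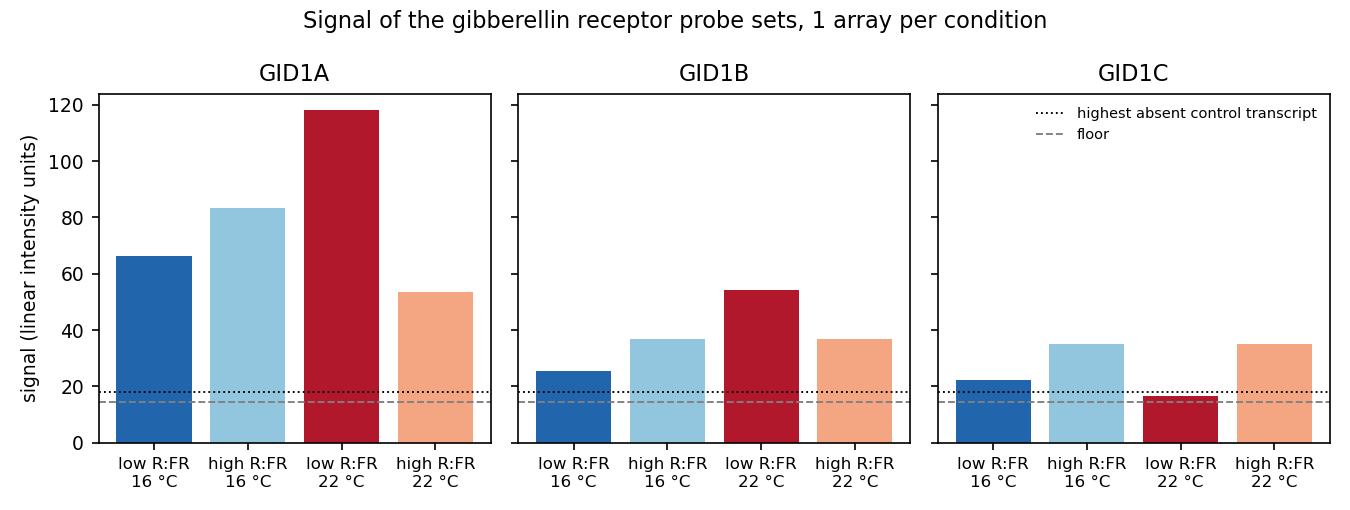
Signal in linear intensity units (vertical axis) of the probe sets of GID1A, GID1B and GID1C on the array of each condition (horizontal axis, 1 bar per array, no error bars because no condition was repeated). The dashed line is the floor of 14.5 and the dotted line the highest absent control, 17.9. GID1A and GID1B peak in low R:FR at 22 °C, where GID1C has its lowest signal, 16.5.

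As a scale for these changes, a local SD was taken from the light responses of the 500 probe sets closest in average brightness (the scaled median absolute deviation). It describes how widely probe sets of like brightness moved between the same arrays and is no replicate error. At 16 °C neither member passed 2-fold, against 1.84% of measured probe sets upwards and 2.89% downwards. These are 251 and 395 probe sets, which became 495 and 252 with arrays scaled to reference genes. Their responses there were about 1 local SD below 0, at -1.01 local SDs for GID1A and -1.11 for GID1B. As low were 75 of GID1A's 500 and 76 of GID1B's, each count including the gene itself. GID1C's response at 16 °C was -1.08 local SDs, and 86 of its 500 were as low. The 16 °C responses thus lay inside the common spread of probe sets of like signal. At 22 °C GID1A passed 2-fold, a size that 1.01% of measured probe sets reached upwards and 0.498% downwards. Its response was 4.23 local SDs (local SD 0.27), and 4 of its 500 moved as high or higher. Among all 13648 measured probe sets, 85 reached its value. GID1B's response at 22 °C was 1.54 local SDs (local SD 0.37), and 41 of its 500 reached it. GID1C's was -2.34 local SDs (local SD 0.47), and 4 of its 500 were as low.

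**Figure D2:**
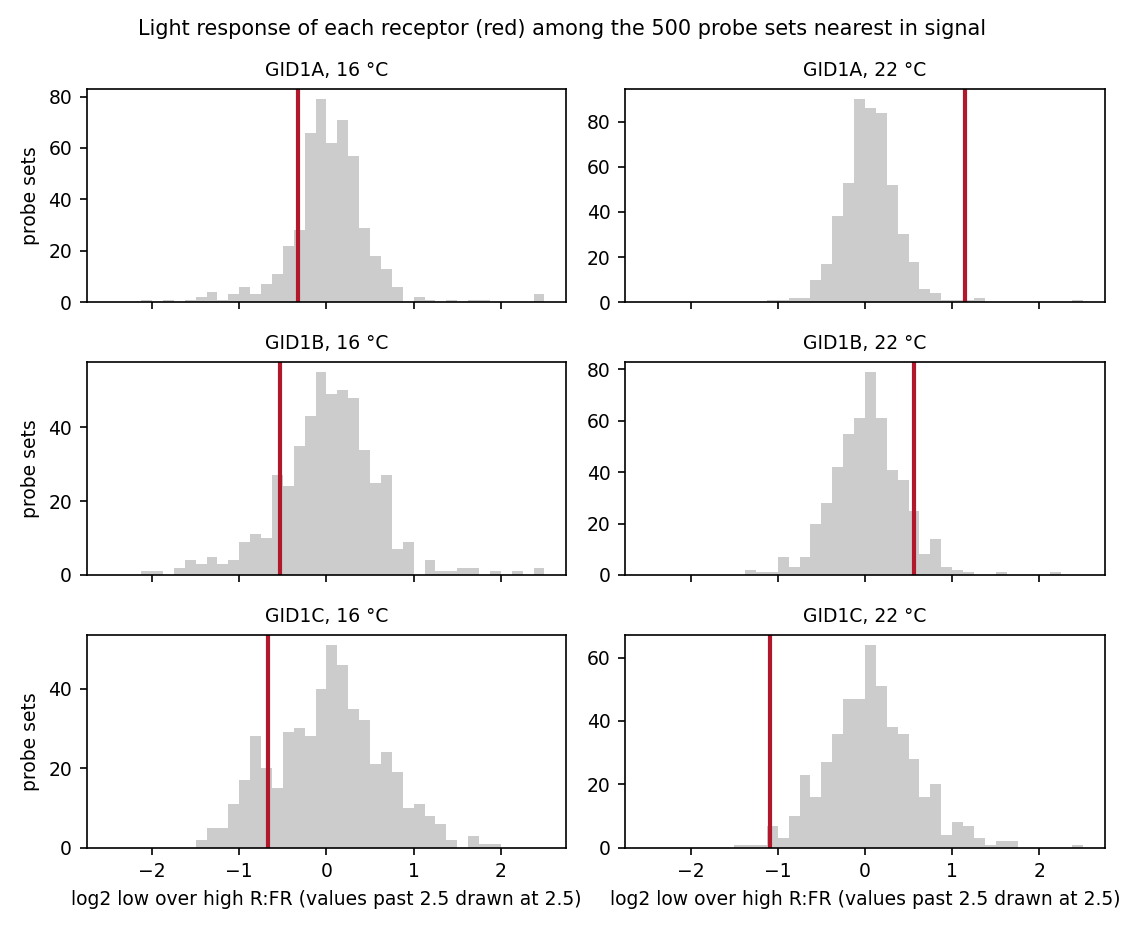
Histograms of the light response (horizontal axis, log2 low over high R:FR) of the 500 probe sets closest in brightness to each receptor, with the number of probe sets on the vertical axis, at 16 °C (left) and 22 °C (right). The red line is the receptor itself. GID1A at 22 °C (1.15) and GID1C at 22 °C (-1.09) lie at the edges of their histograms, and the 16 °C lines lie within them.

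Light responses of different receptors can be set against each other without any effect of the scaling of whole arrays. At 16 °C the response of GID1A exceeded that of GID1C by 0.34 (log2, combined local SD 0.70), and that of GID1B exceeded GID1C's by 0.14 (combined local SD 0.78). At 22 °C, where GID1C's low R:FR signal was not above the highest absent control, only bounds hold. Counted from that control's 17.9, GID1A's response exceeded GID1C's by at least 2.12 and GID1B's by at least 1.54, with combined local SDs of 0.54 and 0.59. GID1A's response exceeded GID1B's by 0.20 at 16 °C (combined local SD 0.58) and by 0.58 at 22 °C (0.46). No gap was tested against replicates.

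The series compared temperatures in order to see whether the light response depends on them. The light response at 16 °C minus that at 22 °C was -1.47 for GID1A (local SD 0.40), and 7 of the 500 probe sets of like signal were as low. For GID1B it was -1.09 (local SD 0.63), and 29 of the 500 were as low. Both members had a difference of at most -1, as did 4.16% of measured probe sets, while 2.31% had one of at least 1. GID1B's was short of -1 with scaling to spike-in controls (-0.98) or to reference genes (-0.68), with a pseudocount (-0.78) and with the floor at the median signal (-0.53). For GID1C the difference was 0.43 (local SD 0.82). A light response below 0 at 16 °C together with one of at least 2-fold upwards at 22 °C, the pattern of GID1A, was found in 32 probe sets, 0.234% of those measured. A weaker form, at most -0.3 at 16 °C and at least 0.3 at 22 °C, held for 448 (3.28%), both members among them. The limit of 0.3 was set after the values were seen. GID1A's 16 °C response was short of it with a pseudocount (-0.28) or scaling to reference genes (-0.11), and GID1B's with the floor at the median signal. The opposite form, above at 16 °C and below at 22 °C, held for 333 (2.44%). Opposite signs of any size held for 46.7%.

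**Figure D3:**
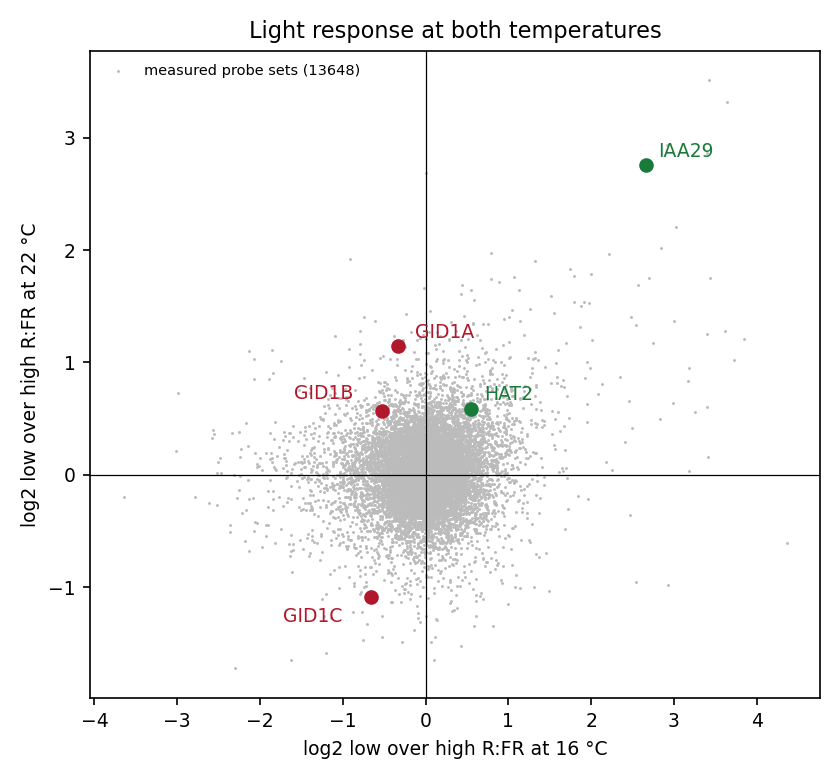
Light response at 16 °C (horizontal axis) against that at 22 °C (vertical axis), both as log2 low over high R:FR, for the 13648 measured probe sets (grey), the receptors (red) and the shade marker genes IAA29 and HAT2 (green). GID1A and GID1B lie in the upper left, GID1C in the lower left and both markers in the upper right.

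Of 7 listed shade marker genes, 2 were measured, and both, by contrast, were higher in low R:FR at both temperatures. IAA29, a repressor of auxin signalling, had light responses of 2.66 at 16 °C and 2.76 at 22 °C. HAT2, a homeodomain transcription factor gene, had responses of 0.55 and 0.59 at these temperatures (local SDs 0.33 and 0.26). Their differences between temperatures were -0.10 and -0.04, against -1.47 for GID1A and -1.09 for GID1B. Reference genes, chosen for stable levels, did not all stay at 0. Of 6 listed, 4 were measured. PEX4 had light responses of 0.04 at 16 °C and 0.07 at 22 °C. The others had the signs of both members, with -0.35 and 0.10 for AT4G34270, -0.32 and 0.18 for AT4G26410 and -0.25 and 0.45 for AT2G28390. The differences of the 4 genes were -0.03 for PEX4, -0.45 for AT4G34270, -0.49 for AT4G26410 and -0.70 for AT2G28390. With arrays scaled to these 4 genes the difference was -1.06 for GID1A and -0.68 for GID1B, and GID1A's response at 22 °C was 0.95, short of 2-fold. It was also short of 2-fold, at 0.97, when the floor gave way to a pseudocount of the same size. Relative to the median of all measured probe sets under the scaling to reference genes, GID1A's response at 22 °C was 1.13 and the difference -1.48. Scaling multiplies a whole array, so these relative values stay nearly the same under any scaling and are no check of the result.

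Probe sets of control transcripts that are added at hybridization give the part of the error that arises after labelling. The 9 with mean signals between 30 and 150, a range that holds the means of GID1A and GID1B, had light responses with an SD of 0.25 at 16 °C and 0.31 at 22 °C. Several of these probe sets read the same few transcripts, so they are not 9 independent readings. The highest of them at 22 °C was 0.70, which exceeds GID1B's 0.56 and the shade marker HAT2's 0.59 and not GID1A's 1.15. Their differences between temperatures had an SD of 0.45, and the lowest was -1.14, beyond GID1B's -1.09 and short of GID1A's -1.47. GID1B's response at 22 °C and its difference thus lay within the range of these controls. Its 16 °C response, -0.53, and its temperature response in low R:FR, -1.09, lay beyond their lowest values of -0.44 and -0.47. Both rest on its signal of 25.5 in low R:FR at 16 °C, dimmer than the lowest signal of these controls, 34.5. The controls therefore give no scale for these 2 values. The -0.53 was -1.11 local SDs, and 76 of its 500 were as low. GID1A's response at 22 °C, its difference and its temperature response in low R:FR, -0.83, also lay beyond the range of the controls.

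Read across temperatures, the receptors differed by light condition. In low R:FR, GID1B was 2.13-fold lower at 16 than at 22 °C (log2 -1.09, local SD 0.52) and GID1A 1.78-fold lower (log2 -0.83, local SD 0.42). Here 6.61% of measured probe sets passed 2-fold downwards and 1.62% upwards, and GID1B alone of both members passed. It was short of 2-fold with equal medians (-0.92), quantile normalization (-0.93), scaling to reference genes (-0.83), a pseudocount (-0.78) and the floor at the median signal (-0.53). In high R:FR, GID1A was 1.56-fold higher at 16 °C (log2 0.64, local SD 0.32), short of the 2-fold that 1.11% of measured probe sets reached upwards and 3.17% downwards. GID1B had the same signal at both temperatures there. Over all measured probe sets these shares shifted with the scaling. In low R:FR 221 were 2-fold higher and 902 lower at 16 °C, but 423 and 644 with equal medians and 635 and 536 with reference gene scaling. In high R:FR 151 were higher and 432 lower, but 224 and 310 with equal medians, 73 and 780 with spike-in scaling and 82 and 687 with reference gene scaling. These comparisons use the same 4 arrays as the light responses. From the highest to the lowest of GID1A's 4 levels, neighbours lay 0.50, 0.33 and 0.31 apart on the log2 scale, with local SDs of 0.40, 0.33 and 0.36, so no neighbours differed by 2 local SDs. The same held for GID1B, whose gaps above and below the equal high R:FR levels were 0.56 and 0.53 (local SDs 0.37 and 0.48). Plants had the same age at both temperatures, so growth stage and temperature cannot be told apart.

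One fit across all measured probe sets had a residual degree of freedom, limma with an additive term for light and one for temperature. Its error starts from the departure from additivity, which for these genes is the very difference described above. limma then draws that error towards a trend over all measured probe sets (5.18 prior degrees of freedom, against 1 residual). The SEs and p-values are therefore not those of each gene's own difference. The light term was 0.41 ± 0.34 (SE) for GID1A and 0.02 ± 0.33 for GID1B, with limma adjusted p-values of 0.866 and 0.996. The temperature term, 16 over 22 °C, was -0.09 for GID1A and -0.55 for GID1B, with limma adjusted p-values of 0.895 and 0.380. Neither term passed for either gene. Over all measured probe sets limma called 7 higher and 0 lower for light and 48 higher and 143 lower for temperature, while 6.59% and 22.5% had an unadjusted p under 0.05.

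Other genes of gibberellin action were taken from 11 lists with 64 genes besides the members, of which 16 had a probe set with 1 gene and 12 were measured. No DELLA gene, no gibberellin oxidase gene and no gene of early gibberellin synthesis was among them, and those levels were not analysed here. At 16 °C 0 of the 12 passed 2-fold, with 6 above and 6 below 0 and a median light response of -0.03, against 0.01 over all measured probe sets, of which 1.84% passed upwards and 2.89% downwards. At 22 °C 2 were at least 2-fold higher and 1, GID1C, at least 2-fold lower, with a median of 0.18, against 0.01 over all, of which 1.01% passed upwards and 0.498% downwards. For the difference the median was -0.05, against 0.00 over all, and 1 gene, JKD, had at most -1, as did 4.16% of all. JKD was also 1 of the 2 genes higher at 22 °C. Its mean signal, 24.3, exceeded the 23.2 needed to count as measured only through its signal in low R:FR at 22 °C. That same signal made the rise and the difference, so JKD's part in these counts is no support for a response.

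Downstream of the receptors, SLY1 had a signal of 44.0 in low R:FR at 16 °C, against 78.0 in high R:FR. At 22 °C it had 82.1 in low R:FR, against 80.9 in high R:FR. SLY1 was thus lowest on the same array as GID1B, with light responses of -0.83 at 16 °C (local SD 0.35) and 0.02 at 22 °C. SLY2 (SNE), a related F-box gene, stayed between 22.9 and 27.4 on all 4 arrays. SPY and SEC encode O-linked sugar transferases that modify DELLA proteins, and their light responses lay between -0.25 and 0.23. Of genes linked to gibberellin transport, SWEET13 had responses of 0.21 at 16 °C and 0.24 at 22 °C, and AT1G68570 (NPF3.1) of 0.45 and 0.20.

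Of DELLA partners and early targets, 2 were measured. XERICO, a RING finger gene known as a DELLA target, had light responses of 0.30 at 16 °C and 0.37 at 22 °C. JKD, a zinc finger gene whose product binds DELLA proteins, had a signal of 15.3 in low R:FR at 16 °C, against 28.9 in high R:FR. At 22 °C JKD had 54.8 in low R:FR, against a signal below the floor in high R:FR. Counted from the floor, it was 3.78-fold higher in low R:FR. Its order of conditions was that of GID1A, highest in low R:FR at 22 °C and lowest in high R:FR at 22 °C, but 2 of its 4 signals lay below the highest absent control. The sizes of JKD's light responses are therefore uncertain.

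The list of GASA peptide genes, many of which respond to gibberellin, had 3 measured loci of 14. AT2G14900 had 113 in low R:FR at 16 °C, against 68.6 in high R:FR. At 22 °C it had 259 in low R:FR, against 122 in high R:FR. It was higher in low R:FR at both temperatures, with light responses of 0.71 and 1.08. AT1G22690 had responses of -0.22 and -0.27, and AT5G59845 of 0.64 and 0.15, the first of these against a high R:FR signal below the floor.

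GID1 receptors are related in sequence to carboxylesterases, and the list of Arabidopsis carboxylesterase relatives had 7 measured genes of 17. At 16 °C 5 of the 7 were below 0, with a median light response of -0.36, while 1 passed 2-fold upwards and 1 downwards. The one upwards, AT2G45600, passed against a high R:FR signal below the floor. Its mean signal, 23.5, was barely above the 23.2 needed to count as measured. Over all measured probe sets 50.9% were above 0, the median was 0.01, and 1.84% passed upwards and 2.89% downwards. At 22 °C 6 of the 7 were above 0, with a median of 0.31, and 1 passed 2-fold upwards. Here 51.9% of all were above 0, with a median of 0.01, and 1.01% passed upwards. AT1G68620, the one of these past 2-fold at 22 °C, had 47.0 in low R:FR at 16 °C, against 67.2 in high R:FR. The 22 °C signals were 242 in low R:FR, against 116 in high R:FR. Its light responses were -0.52 and 1.05 (local SDs 0.35 and 0.24), with a difference of -1.57. The median difference of the 7 genes was -0.57, against 0.00 over all measured probe sets.

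**Figure D4:**
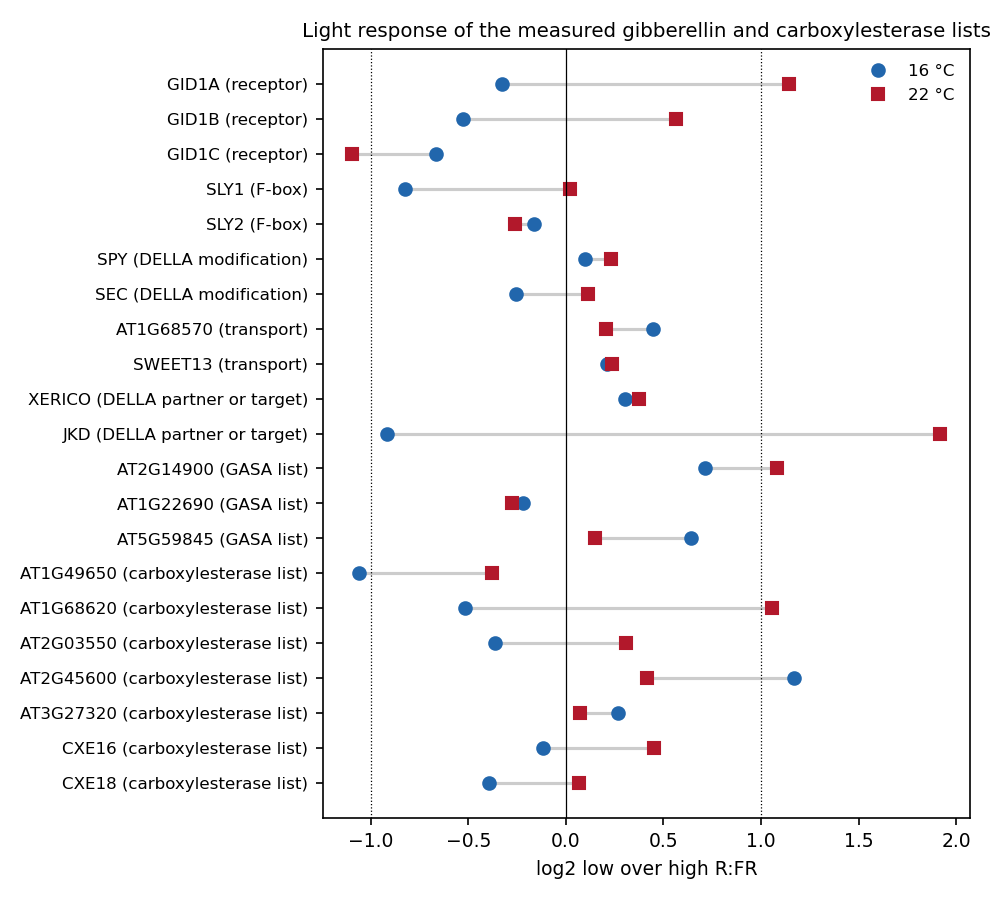
Light response (horizontal axis, log2 low over high R:FR) at 16 °C (blue circles) and 22 °C (red squares) of the 3 receptors and the other measured genes of the gibberellin and carboxylesterase lists, 1 row per gene. Dotted lines mark 2-fold. GID1A, JKD and AT1G68620 pass it upwards at 22 °C with a response below 0 at 16 °C, and JKD's 22 °C value is counted from the floor.

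Genes with profiles most like those of the receptors were sought among 7302 other measured probe sets with 1 gene, by Euclidean distance between log2 profiles over the 4 arrays, each centred on its mean. For GID1A the nearest was rpl14, a chloroplast-encoded ribosomal protein gene, at a distance of 0.06. It had 182 in low R:FR at 16 °C, against 217 in high R:FR. On the 22 °C arrays rpl14 had 312 in low R:FR, against 142 in high R:FR. The next 5, at distances of 0.15 to 0.25, were AT3G03680, AT2G18750, XCT, AT2G42290 and AT1G12120, of which XCT is known as a regulator of the circadian clock.

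For GID1B the nearest were AT4G00990 and BIK1, both at 0.08, BIK1 being a kinase gene of the immune response. BIK1 had 109 in low R:FR at 16 °C, against 167 in high R:FR. On the 22 °C arrays BIK1 had 240 in low R:FR, against 157 in high R:FR. AT1G55590, AT5G60800, AT2G22420 and AT1G21670 followed, at 0.09 to 0.12. GID1B stood 376th in nearness to GID1A, at a distance of 0.63, and GID1A 1554th in nearness to GID1B. GID1A and GID1B shared the sign of the light response at each temperature, but 375 other genes had profiles closer to GID1A than GID1B's. With 4 arrays a profile holds few values, and likeness is given as a description.

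**Figure D5:**
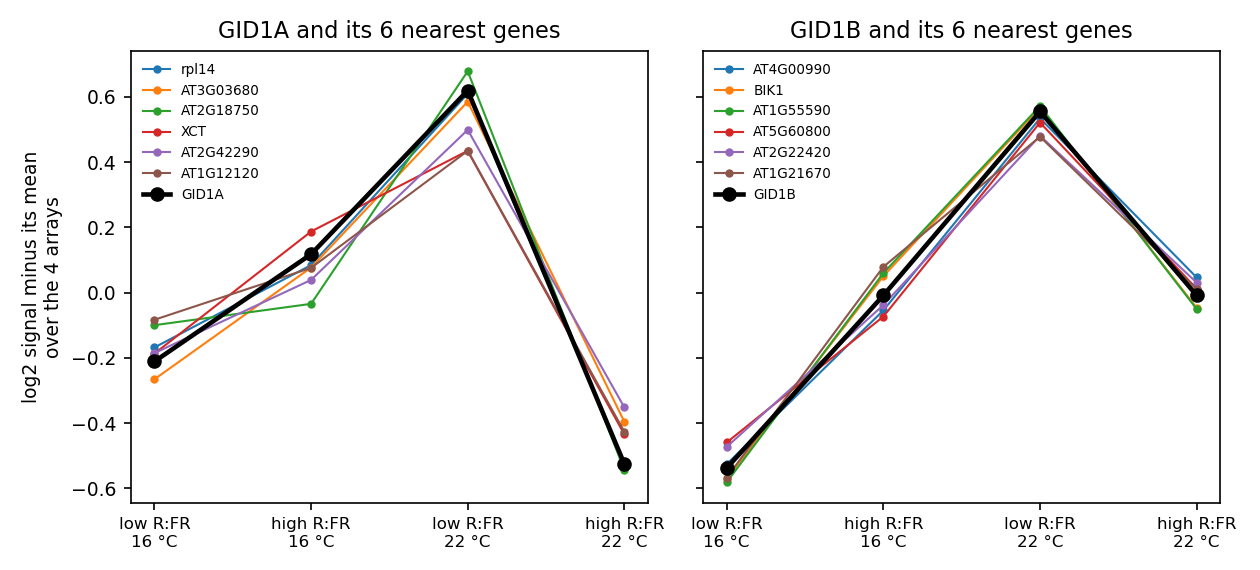
Log2 signal minus its mean over the 4 arrays (vertical axis) in each condition (horizontal axis) for GID1A (left, black) and GID1B (right, black) and the 6 nearest genes of each (coloured lines). All profiles peak in low R:FR at 22 °C. Those of GID1A are lowest in high R:FR at 22 °C and those of GID1B in low R:FR at 16 °C.

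The arrays had nearly equal trimmed means, 100.01, and median signals of 36.0 to 40.6. The low R:FR array of 16 °C, on which GID1B and SLY1 were lowest, stood apart by 258 measured probe sets that were 2-fold or more below their level everywhere else. The high R:FR array of 16 °C had 70 such probe sets, and the 22 °C arrays had 17 in low R:FR and 9 in high R:FR. The mean log2 ratio of 3' to 5' signal over 6 pairs of control probe sets, a measure of RNA quality, was 0.54 in low R:FR at 16 °C, against 0.82 in high R:FR. At 22 °C it was 0.64 in low R:FR, against 0.73 in high R:FR. Cotyledon markers were bright, with 3 of 8 measured and RCA at 3872 to 4327, and the meristem marker CLV3, 1 of 4 with a probe set, was below the floor on every array. Of 5 root markers 1 was measured, PYK10, a glucosidase gene also active in hypocotyls. PYK10 had 1083 in low R:FR at 16 °C, against 2024 in high R:FR, and at 22 °C 2835 in low R:FR, against 2913 in high R:FR. Of 4 seed reserve markers ICL was measured, below the floor on both 16 °C arrays, and at 22 °C with 132 in low R:FR, against 20.5 in high R:FR. The part of RNA quality and of tissue makeup in the receptor results was not tested. In whole organs, fewer cells of a type and less RNA per cell cannot be told apart.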

How the data were processed

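The authors deposited linear intensity, as 1 signal for each probe set on each array, and the submitters' processing notes name MAS5 for that step. No source used here gives the MAS5 version, target or detection calls. From these, each array was scaled to a common mean after trimming 2% at either end. Values below the 30th percentile of all values were raised to it before taking log2. After removal of 64 control probe sets, 22746 were left, and the upper part of these, 13648 with a mean log2 from the 40th percentile on (a signal of 23.2), is called measured. Names came from the array's annotation table, matched by gene number to RefSeq for 13436 probe sets. No genome build is stated, so no coordinates are given, and no sequences were used here. With 1 array per group, comparisons are values. The additive fit used limma 3.58.1 in R 4.3.3 (lmFit, eBayes with a trend, Benjamini-Hochberg adjustment over measured probe sets). It was also run on simulated data with the same SD for all probe sets and no departure from additivity beyond noise. That setting differs from these arrays, so the run does not show how the fit performs on them. Nothing says how many plants an array holds. Named were the members, the listed genes with a probe set and the 6 nearest profiles of each member. The members and lists were chosen with earlier results of these data known. Alternatives covered scaling, floor, pseudocount, filter, fold, variance prior, probe sets marked as shared and the measure of likeness.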

Additional observations from a re-analysis of the deposited data

Results flagged for a closer look

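Light responses of opposite sign at 16 and 22 °C, each beyond 0.3 on the log2 scale, were found for 5 of the 21 measured genes of the gibberellin and carboxylesterase lists. The limit was set after the values were seen. GID1A's 16 °C response was short of it with a pseudocount (-0.28) and with scaling to reference genes (-0.11). GID1B's was 0 with the floor at the median signal, so the count depends on the processing. The light response at 16 °C minus that at 22 °C was -1.47 for GID1A, -1.09 for GID1B, -2.84 for JKD, -1.57 for AT1G68620 and -0.67 for AT2G03550. JKD's value is counted from the floor, since its signal in high R:FR at 22 °C lay below it. Its signal in low R:FR at 16 °C also lay under the highest absent control, so the size of its difference is uncertain. JKD moreover counted as measured only through its signal in low R:FR at 22 °C, which enters the difference. Each response rests on 1 array per condition, and the differences were not tested. Opposite signs of any size held for 46.7% of measured probe sets. The rule took either direction. Beyond 0.3, below at 16 °C and above at 22 °C, the form of all 5 genes, held for 3.28%. The reverse form, which also met the rule, held for 2.44%. GID1A and GID1B are the chosen members, taken with earlier results of these data known, so the count partly repeats that choice.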

How the results depend on the processing

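Over 8 alternatives GID1A's light response ranged from -0.33 to -0.11 at 16 °C and from 0.95 to 1.15 at 22 °C, and its difference from -1.47 to -1.06. GID1B's ranged from -0.54 to 0 at 16 °C and from 0.37 to 0.56 at 22 °C, and its difference from -1.09 to -0.53. None of these signs turned, but with the floor raised to the median signal, 37.8, GID1B lay at the floor on 3 of 4 arrays, which made its 16 °C response 0 and its temperature response in low R:FR -0.53. GID1C lay at that floor on every array, which left it no light response at either temperature. With arrays scaled to the 4 reference genes, an alternative chosen after seeing the data, GID1A's difference was -1.06. That scaling moved the median of all measured probe sets to 0.23 for the light response at 16 °C, -0.18 at 22 °C and 0.42 for the difference, and spike-in scaling moved it to -0.10 at 22 °C and 0.11 for the difference. Relative to the medians under these scalings GID1A's difference was -1.48 or -1.47 and GID1B's -1.09. GID1A's temperature response ranged from -0.90 to -0.57 in low and from 0.46 to 0.76 in high R:FR, and GID1B's from -1.17 to -0.53 in low and, with signs both ways, from -0.19 to 0.12 in high R:FR. Scaling to equal medians moved the median temperature response in low R:FR to 0.13 from -0.05. limma's adjusted p was 0.209 or higher for both members under all alternatives in which they were tested. With the filter at the 60th percentile GID1B did not pass and was not tested. Its calls for light numbered 7 and ranged from 0 (floor at the median signal, no filter, no trend) to 70 (reference genes), and for temperature 191 and from 0 to 1147. Where limma called 0 probe sets, 651 (floor at the median signal), 1029 (no filter) and 876 (no trend) had an unadjusted p under 0.05 for light, and 1934, 2332 and 2638 for temperature.

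Of the gibberellin list genes, 3 passed 2-fold in light at 22 °C, 1 in the difference, 3 between temperatures in low and 2 in high R:FR. In the same order, 1.01%, 2.31%, 1.62% and 1.11% of all measured probe sets passed upwards and 0.498%, 4.16%, 6.61% and 3.17% downwards. At 3-fold the list counts were 1, 1, 1 and 0, with the floor at the median signal 1, 0, 1 and 0, with the filter at the 60th percentile 1, 0, 1 and 0, and with a pseudocount 1 at 22 °C in light and 0 in high R:FR. With a floor at the 10th percentile 0 passed in the difference, and with reference gene scaling 1 passed in high R:FR. Of measured probe sets 138 were higher and 68 lower in light at 22 °C, but 105 and 89 with equal medians, 97 and 110 with spike-in scaling and 77 and 154 with reference gene scaling. For the difference 315 and 568 became 446 and 448 with spike-in scaling and 1235 and 237 with reference gene scaling. By Pearson's r, 1 of GID1A's 6 nearest genes and 0 of GID1B's remained, and with the floor at the median signal 0 of GID1B's. No paired analysis was possible because each condition has 1 array. GID1C and JKD are limited by signals under the highest absent control. JKD is limited also by the filter, which it passed only through its signal in low R:FR at 22 °C.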
